A study of Mus musculus with 6 samples.

Results

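The genes described here are 9 lipases and lipase regulators, *Angptl4*, *Lpl*, *Lipc*, *Gpihbp1*, *Pnpla2*, *Pnpla3*, *Lipe*, *Abhd5* and *Mgll*. They were chosen by gene symbol for their roles in triglyceride breakdown outside and inside the cell, and all 9 were found among the 24421 genes of the authors' table of hepatic mRNA. The study compared livers of mice heterozygous for a null allele of *Pai-1*, labelled PAI-1 heterozygous and written *Pai-1*+/− here, with livers of wild-type (WT) littermates by RNA-seq, 3 samples of each. All mice were C57BL/6 and 21 weeks old in the labels (C57BL/6 J and a lower age in the study's text). They were on the standard chow (SC) diet and fed ad lib. The study describes males, with *Pai-1*+/− mice bred by crossing *Pai-1*−/− with WT mice. That cross alone gives no WT pups, so how the WT littermates were obtained is not clear. The allele is carried in every cell, so these samples do not separate its loss in hepatocytes from its loss elsewhere.

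A comparison of the genotypes is the purpose of the study, but it was not made here for any of the 9 genes. The counts of single animals stand under animal numbers that match no sample label, so no column was assigned to a genotype and none was used. The values below are the authors' mean over all libraries of both genotypes, after division by size factors, referred to as the mean normalized count. They carry no SD and no standard error, and no statement below says that a gene differed between *Pai-1*+/− and WT livers. A gene whose level differs between the genotypes has a mean lying between its levels in each.

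Triglyceride in circulating lipoproteins is hydrolyzed at the vessel wall by lipoprotein lipase and, on remnant and high density lipoprotein particles, by hepatic lipase. Angiopoietin-like proteins inhibit lipoprotein lipase, and a protein anchored on capillary endothelium holds the enzyme in place. Inside the cell, triglyceride in lipid droplets is taken apart one fatty acid at a time by a series of enzymes, from adipose triglyceride lipase through hormone-sensitive lipase to monoglyceride lipase. In hepatocytes these fatty acids can be oxidized, exported again in very low density lipoprotein or used for signaling.

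The 9 genes differed widely in level. To compare one gene with another, the mean normalized count was divided by the length in kilobases (kb) of the longest transcript of the gene in GENCODE M21, which gives the level per kb. The highest level per kb, that of *Mgll*, was 274-fold that of the lowest, *Pnpla3*. From the highest to the lowest, the order was *Mgll*, *Lipc*, *Pnpla2*, *Angptl4*, *Abhd5*, *Gpihbp1*, *Lipe*, *Lpl* and *Pnpla3*. The order was the same when all annotated exons of each gene were merged and their summed length was used. Without division by length the order changed, with *Pnpla2* and *Angptl4* before *Lipc* and with *Gpihbp1* after *Lipe* and *Lpl*. The spread between mice does not enter this order, and neighbors such as *Lipc* and *Pnpla2*, whose levels per kb were in a ratio of 1.03, cannot be ranked from means alone. The widest gaps between neighbors were those of 14.1-fold between *Lpl* and *Pnpla3* and of 4.53-fold between *Angptl4* and *Abhd5*. The plot of level per kb by gene shows a group of 4 genes at the top, a group of 4 in the middle and *Pnpla3* by itself.

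**Figure D1:**
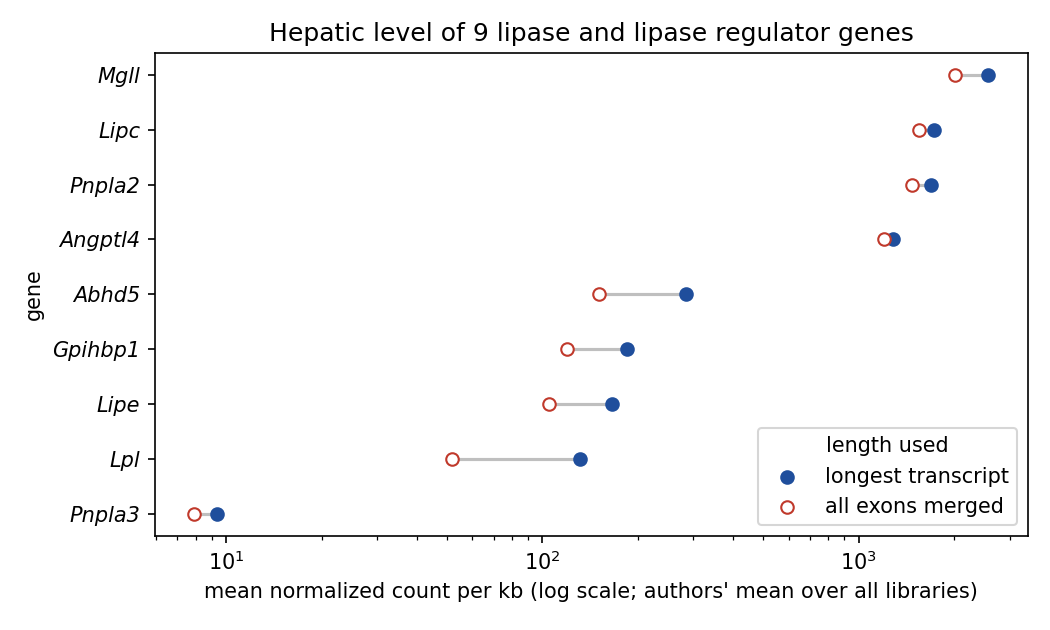
Level of each of the 9 genes, as the authors' mean normalized count over all libraries per kb of gene length, on a log axis. Filled points use the longest transcript and open points the merged exons; *Mgll* lies highest at 2562 and *Pnpla3* lowest at 9.34 per kb of the longest transcript, and the open point of *Lpl*, at 51.7, lies farthest from its filled one, at 132.

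The position of each gene among other hepatic transcripts was read from the 12499 genes that have a mean normalized count above 10 and a single gene model. The median level per kb of these genes was 129. Of the 9 genes, 8 lay above this median and 4 lay above the 90th percentile, which stood at 1209 per kb. The number above the median was 7 with merged exons, where *Lpl* fell below it at percentile 37.0, and also 7 without division by length, where *Gpihbp1* fell below it at percentile 41.9. None of the 9 reached the 99th percentile, at 14158 per kb. The median of the 9 levels per kb was 284, and together the genes took 0.0820% of all mean normalized counts.

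**Figure D2:**
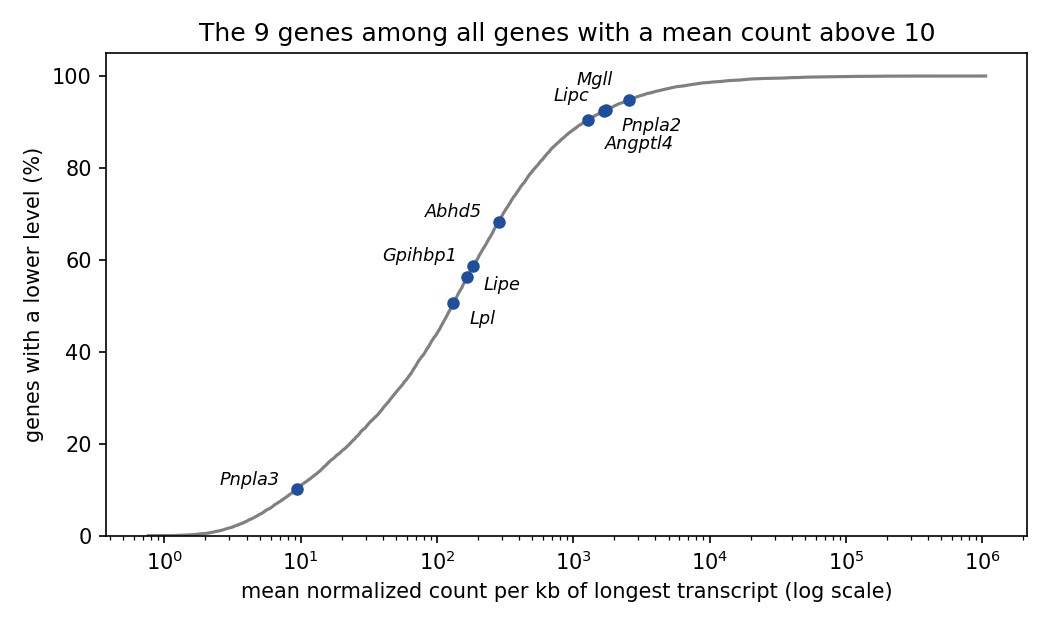
Cumulative share of the 12499 ranked genes (vertical axis, in percent) against level per kb of the longest transcript (log axis), with the 9 genes marked on the curve. *Mgll*, *Lipc*, *Pnpla2* and *Angptl4* sit between percentiles 90.5 and 94.9, *Abhd5*, *Gpihbp1*, *Lipe* and *Lpl* between 50.6 and 68.3, and *Pnpla3* at 10.1.

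Among the secreted lipases, the mRNA of hepatic lipase was more abundant than that of lipoprotein lipase. Here and below, levels are those of mRNA, and amounts of protein were not compared. *Lipc*, which hepatocytes secrete and which acts on remnants and high density lipoproteins, had a mean normalized count of 3333 and a level of 1736 per kb, at percentile 92.6. Its gene lies on chromosome 9 at 70798128 to 70952226 of GRCm38, on the minus strand, and its longest transcript has 9 exons. *Lpl*, the lipase of adipose, heart and muscle capillaries, had a mean normalized count of 542 and a level of 132 per kb, at percentile 50.6. *Lpl* lies on chromosome 8 at 68880491 to 68907448, on the plus strand, and its longest transcript has 10 exons. The level per kb of *Lipc* was 13.2-fold that of *Lpl*, 30.0-fold when merged exons were used and 6.15-fold in mean normalized count before division by length. The value with merged exons is the largest because the merged exons of *Lpl* span 10478 bases, against 4115 in its longest transcript, which lowers its level to 51.7 per kb. The level of *Lpl* therefore depends on which of its transcripts the liver makes, which the table does not record.

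Of the partners of lipoprotein lipase, the inhibitor had more abundant mRNA than the enzyme. The mRNA of the anchor was nearer to that of the enzyme in level. *Angptl4*, whose product inactivates lipoprotein lipase and which is induced in fasting and by fatty acid sensing receptors, had a mean normalized count of 4259 and a level of 1287 per kb, at percentile 90.5. This level per kb was 9.77-fold that of *Lpl*, and 23.2-fold with merged exons. *Angptl4* lies on chromosome 17 at 33773750 to 33781830, on the minus strand, and shares no exonic bases with another annotated gene. *Gpihbp1*, which encodes the anchor on capillary endothelium that binds lipoprotein lipase, had a mean normalized count of 305 and a level of 185 per kb, at percentile 58.8. It lies on chromosome 15 at 75596628 to 75599481, on the plus strand. The ratio of *Lpl* to *Gpihbp1* was 0.712 per kb and 0.433 with merged exons, but 1.77 in mean normalized count before division by length, so which of the genes is the higher depends on the length correction.

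Because *Gpihbp1* belongs to endothelium and *Lpl* to several cell types, the markers of other cells were read from the same table. All 6 endothelial markers were measured above 10, with mean normalized counts from 205 (*Lyve1*) to 1273 (*Stab2*). Per kb they ran from 70.7 (*Lyve1*) to 635 (*Clec4g*), with *Gpihbp1* inside this range at 185. The level per kb of *Gpihbp1* was 1.09-fold that of the endothelial receptor gene *Kdr*, and 1.07-fold with merged exons. Before division by length *Kdr* was the higher, with a mean normalized count of 1005 against 305 for *Gpihbp1*. All 6 Kupffer cell markers were also above 10, from 173 (*Timd4*) to 2374 (*Cd5l*). The 5 stellate cell markers ran from 135 (*Des*) to 4160 (*Dcn*), and the 4 cholangiocyte markers from 25.8 (*Krt7*) to 268 (*Sox9*). Of 6 adipocyte markers, 2 were above 10, *Fabp4* at 190.2 and *Cfd* at 79.2, while the defining genes *Adipoq*, *Plin1* and *Lep* were at 7.87, 4.75 and 0.866. The 4 muscle markers were at or below 3.24, and of the 4 pancreas markers the highest was *Cpa1* at 22.2. The tissue label was matched by the hepatocyte markers, all 6 of which lay between 56732 (*Tat*) and 2155550 (*Alb*). In whole liver, fewer cells of a type and less RNA per cell cannot be told apart, and the part of each cell type in the levels of *Lpl* and *Gpihbp1* was not tested.

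Among the intracellular lipases, the mRNAs of adipose triglyceride lipase and monoglyceride lipase were abundant, and that of hormone-sensitive lipase was less so. *Pnpla2*, adipose triglyceride lipase, which releases the initial fatty acid from triglyceride, had a mean normalized count of 4441 and a level of 1692 per kb, at percentile 92.5. It lies on chromosome 7 at 141455198 to 141460743, on the plus strand. *Lipe*, hormone-sensitive lipase, which acts mainly on diglyceride and is best known from adipose tissue, had a mean normalized count of 618 and a level of 166 per kb, at percentile 56.3. Other intracellular lipase genes lay on either side of *Lipe*, such as *Daglb* at 290 and *Dagla* at 6.07 per kb. Which of these genes serve the diglyceride step of droplet breakdown in liver was not tested. *Mgll*, monoglyceride lipase, which also degrades the endocannabinoid 2-arachidonoylglycerol, had a mean normalized count of 10224 and a level of 2562 per kb, at percentile 94.9. It was the 383rd gene of the table by mean normalized count and carried 31.8% of the summed level per kb of the 9 genes. The level per kb of *Pnpla2* was 10.2-fold that of *Lipe*, and that of *Mgll* was 15.4-fold. With merged exons these ratios were 14.0 and 19.2. *Mgll* stood 1.51-fold above *Pnpla2* per kb, 1.37-fold with merged exons and 2.30-fold before division by length, a gap that cannot be set against any spread between mice here.

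The gene for *Lipe* lies on chromosome 7 at 25379527 to 25398710, on the minus strand, and 918 of its exonic bases, or 15.6%, overlap the antisense gene *4732471J01Rik*. The mean normalized count of that gene was 16.1. *Mgll*, on chromosome 6 at 88724412 to 88828360 on the plus strand, shares 167 exonic bases, or 3.29%, with the antisense gene *Gm26588*. That gene is not listed under this symbol among the authors' genes, so whether it entered the counting is not known. The strand setting of the counting is not given in the sources used here. Reads in the overlap of *Lipe* with *4732471J01Rik* may therefore have been assigned to either gene or left out.

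*Abhd5*, which encodes the coactivator of adipose triglyceride lipase, had less abundant mRNA than *Pnpla2*, which encodes the enzyme. Its mean normalized count was 897 and its level was 284 per kb, at percentile 68.3, so that *Pnpla2* stood 5.96-fold above it per kb. With merged exons, which span 5956 bases against 3157 in the longest transcript, its level was 151 per kb and the ratio was 9.77. *Abhd5* lies on chromosome 9 at 122351608 to 122381524, on the plus strand. Of its exonic bases, 950, or 16.0%, overlap the antisense gene *A730085K08Rik*, which is listed at a mean normalized count of 0. With the strand setting not given, reads in this overlap may have been assigned to *Abhd5* or left out.

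*Pnpla3*, the close relative of *Pnpla2* that sits on lipid droplets and is known to be induced by carbohydrate feeding, was barely detected. Its mean normalized count was 12.3, just over the limit of 10 used for ranking, and its level was 9.34 per kb, at percentile 10.1. It was the 12719th of 24421 genes by mean normalized count, and the level per kb of *Pnpla2* was 181-fold that of *Pnpla3* (362-fold before division by length). The gene lies on chromosome 15 at 84167837 to 84187236, on the plus strand, and shares 105 exonic bases, or 6.78%, with *Gm49513* on the same strand. *Gm49513* is not listed under that symbol among the authors' genes. With the lowest count of the 9 genes, *Pnpla3* has the largest relative counting error among them.

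The 9 genes were then set beside a wider list of lipases, their inhibitors, coactivators and relatives. The list held 47 further gene symbols, of which 44 were found and 36 had a mean normalized count above 10. *Angptl8*, *Pnpla4* and *Tgh* were not found under these symbols. Of the 36 genes, 10 had a level per kb above that of *Mgll*. *Angptl8*, another angiopoietin-like regulator of lipoprotein lipase, is listed under its earlier symbol *Gm6484* and had a mean normalized count of 211. *Lipg*, the endothelial lipase, had a level of 167 per kb, 1.27-fold that of *Lpl* and 2.59-fold with merged exons, and *Lipc* stood 10.4-fold above *Lipg*. *Lmf1*, which is needed for folding of lipoprotein lipase and hepatic lipase, had a level of 312 per kb, 2.37-fold that of *Lpl*. With merged exons the level of *Lmf1* was 88.6 per kb, 1.71-fold that of *Lpl*.

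Inside the cell, *Pnpla2* was exceeded by other hydrolases. *Ces1d*, a carboxylesterase of the endoplasmic reticulum that mobilizes triglyceride for lipoprotein assembly, stood 7.49-fold above *Pnpla2* per kb, although reads of the close *Ces1* paralogs can be confused. *Lipa*, the lysosomal acid lipase, stood 1.58-fold above *Pnpla2*, and 1.04-fold with merged exons. *G0s2*, the inhibitor of adipose triglyceride lipase, had a level of 1605 per kb, 0.949 of that of *Pnpla2*, and the ratio turned to 1.09 with merged exons. *Hilpda*, the other inhibitor of that enzyme, had a level of 71.4 per kb, or 0.0422 of that of *Pnpla2*. *Plin5*, which binds *Abhd5* protein on the droplet, stood 3.96-fold above *Abhd5*, and 7.10-fold with merged exons. *Mgll* stood 4.86-fold above *Abhd6*, another monoglyceride hydrolase. In the patatin family *Pnpla7* and *Pnpla8* stood 85.2-fold and 45.8-fold above *Pnpla3*, and 61.9-fold and 51.5-fold with merged exons. Before division by length *Pnpla8* was higher than *Pnpla7*, with mean normalized counts of 5785 and 3676.

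**Figure D3:**
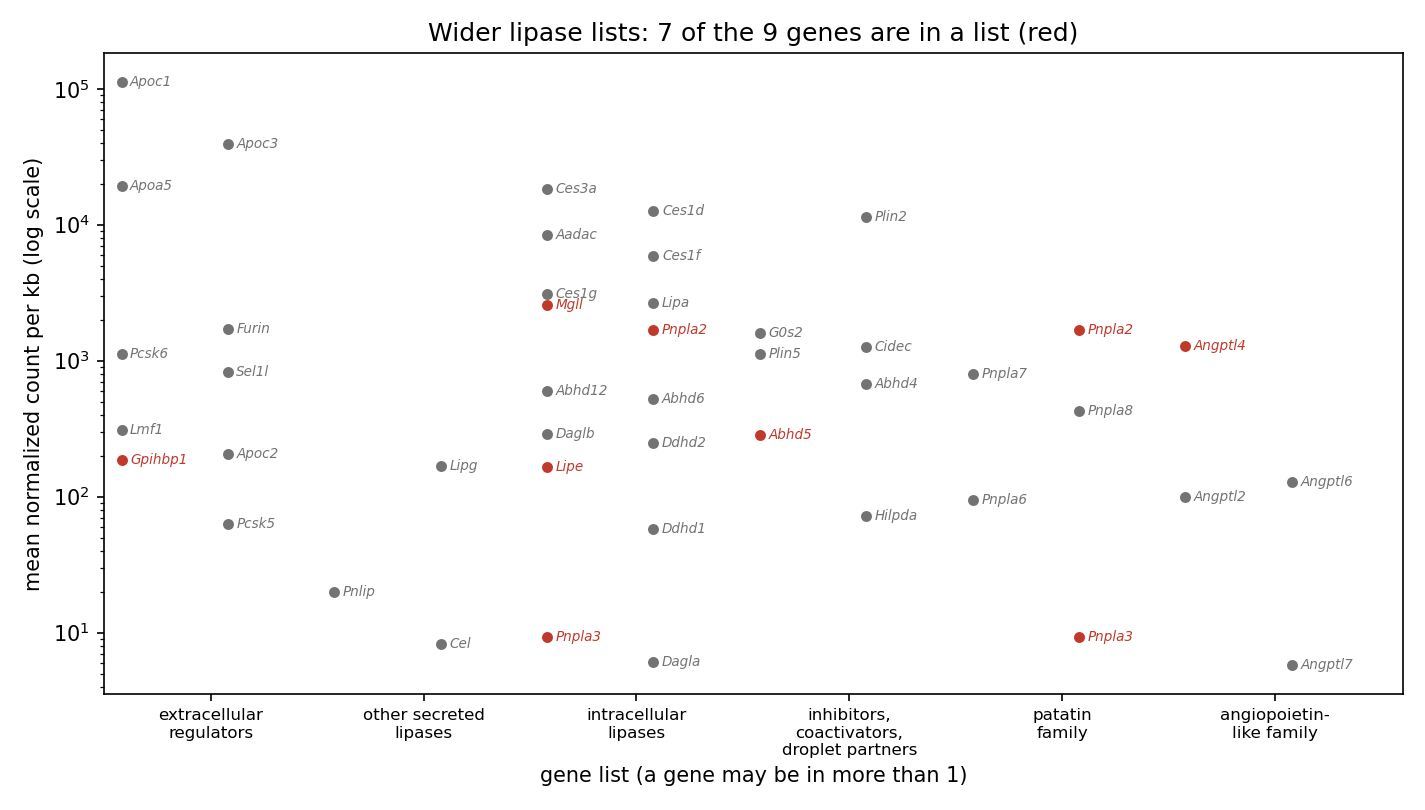
Level per kb of the longest transcript (log axis) of genes with a mean normalized count above 10 in 6 lists of lipases and their partners, with 7 of the 9 genes in red and other genes in grey (*Lpl* and *Lipc* are in no list). *Angptl4* lies at 1287 and *Angptl6* at 129, not every gene of that family being drawn, *Pnpla2* lies beside *G0s2* and below *Ces1d* and *Ces3a*, and *Pnpla3* lies near the bottom of the intracellular lipases, above *Dagla* at 6.07.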

How the data were processed

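RNA-seq libraries were made from livers of 3 WT and 3 *Pai-1*+/− mice and read from a single end. The authors aligned them to mm10 with STAR and ran DESeq2 in the RNA Express BaseSpace application; HOMER is also listed in the submitters' processing notes. Versions, annotation and strand setting are not given in the sources used here. The authors deposited, for each gene, a signal obtained by scaling counts with size factors and averaging them across libraries, and this mean normalized count sums to 30045982.

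The same table holds the authors' own comparison of the genotypes (log2 fold changes, standard errors, Wald statistics, p-values and a status), which was not used. Another deposited table holds counts under 6 animal numbers that match no label, and these columns were not used. The planned edgeR test was therefore not run, and depth per library and replicate error are not given.

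Mean normalized counts were divided by the length of the longest transcript, or of merged exons, in GENCODE M21, whose assembly, GRCm38, corresponds to mm10. Of 12971 genes with a mean above 10, 96.4% matched a single gene model by symbol. Exonic overlaps were counted on merged exons of both strands. Levels were ranked and compared as ratios, with no test. The code for interval lengths was tested on simulated intervals, and that for percentiles on the mean normalized counts in shuffled order. Python 3.11.15, NumPy 2.4.6, pandas 2.3.3 and Matplotlib 3.10.9 were used. The genes named are the 9 genes described, genes of the wider lipase list and cell type markers, and the genes that share exons with them; all of these were chosen with earlier results of these data known. Results for some genes are not reported here.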

Additional observations from a re-analysis of the deposited data

How the results depend on the processing

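The median percentile of the 9 genes by level was 68.3. It was 61.2 with merged exons, 67.5 without division by length and 76.7 when all genes with a mean above 0 were ranked. The number of the 9 above the 90th percentile was 4 under each of these settings, and the number above the median was 8, 7 with merged exons, 7 without division by length and 8 when all genes with a mean above 0 were ranked. Of single genes, *Lpl* fell by 13.6 percentile points with merged exons, *Gpihbp1* fell by 16.9 without division by length, and *Pnpla3* rose by 22.6 when low genes were ranked. The median percentile of the 43 genes of the wider list with a mean above 10, which include 7 of the 9, was 81.9, and 83.3 with merged exons. With the 8 listed genes at or below 10 placed lowest, an alternative chosen after seeing the data, it was 68.8. No paired analysis was possible because no count column could be assigned to a sample, and for the same reason the alternatives on normalization, count filter, DESeq2, replicate block and left-out libraries were not run. Error between mice limits every ratio between genes and is not given, since the counts of single animals were not used.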

Other observations

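In the wider list, *Apoc2*, which encodes the activator of lipoprotein lipase, had a mean normalized count of 150.2 and a level of 207 per kb, while *Apoc3*, an inhibitor encoded by another apolipoprotein gene, stood 190-fold above it per kb. Of the merged exonic bases of *Apoc2*, 646, or 79.5%, are shared with the annotated gene *Gm44805* on the same strand, which is not listed under that symbol in the table. The part of this overlap in the level of *Apoc2* was not tested. *Apoc2* was singled out after its value was seen.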
